A study of Mus musculus with 6 samples.

Results

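The transcript levels of p53 and 9 of its conserved direct targets were examined in cultured mouse mesenchymal stromal cells (MSCs). The 10 genes were taken by symbol from the 23420 genes of the deposited count table. The list was drawn up from the known biology of the pathway, with earlier results of these data known. They were Trp53 itself, Mdm2, Cdkn1a, Ccng1, Zmat3, Sesn1, Sesn2, Phlda3, Trp53inp1 and Eda2r. All 10 had enough reads to be tested, among 11974 genes that were.

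MSCs had been grown from the femur marrow of young female C57BL/6 mice and expanded in culture before transduction with a retrovirus that also encodes eGFP. The 3 libraries of Ctl MSC came from cells given the empty AP2 construct, and the 3 libraries of MSC-TPr from cells given AP2 carrying β1i (Psmb9), β2i (Psmb10) and β5t (Psmb11), the catalytic subunits of the thymoproteasome. All groups therefore share retroviral transduction and eGFP. The labels do not say whether libraries of 1 group came from separate cultures or animals, so p-values measure the spread between libraries, which may be technical. The study asked how expression of the thymoproteasome alters MSCs, and for p53 the comparison asks whether transcripts of its targets differ between the library labels.

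p53 is a transcription factor that is made continuously and is kept scarce as a protein by Mdm2, a ubiquitin ligase that is itself a p53 target. DNA damage and other stresses release p53 from Mdm2, and target genes then arrest the cell cycle, repair DNA, restrain growth signalling or start apoptosis. Because p53 is controlled mainly as a protein, the transcripts of its targets are the usual RNA readout of its activity.

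Of the 10 genes, 8 have a RefSeq promoter window (GRCm38.p6, 250 bases before to 50 after a start site), and Zmat3 and Trp53inp1 were not matched. Each window was searched, on both strands at once because the motif reads the same on each, for the p53 consensus half-site. A full site was taken as a pair of half-sites with no spacer and at most 1 letter off the consensus, a rule written with the Cdkn1a sequence in view. A half-site occurred in 8.36% of all 32851 windows and in windows of 5 of the 8 genes. A full site occurred in 29 windows, 0.0883% of all, and among the 8 genes in Cdkn1a and Ccng1. Both are shown because they are the elements through which p53 is known to act on these genes, with the full site in capitals and written 5′ to 3′ on the strand of the gene.
Cdkn1a: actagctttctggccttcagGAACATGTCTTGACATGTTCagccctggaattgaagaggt
Ccng1: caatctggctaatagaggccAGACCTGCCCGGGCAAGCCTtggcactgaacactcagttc

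The Cdkn1a stretch lies at chr17:29090908-29090967 on the plus strand, and its site begins 51 bases before the upstream of 2 annotated start sites. The Ccng1 stretch lies at chr11:40755442-40755501 on the minus strand, with the site beginning 195 bases before the start. Both sites lie outside the annotated gene bodies. These matches describe sequence, and no binding was measured.

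Libraries held 16158756 to 22158887 reads on genes, and 3 reads, taken as the smallest detectable amount, were 0.139 to 0.181 CPM, which covers counting error only. CPM is the read count scaled to a common library size after TMM normalization, and RPKM divides it by the summed exon length in kilobases. The transduced genes Psmb9, Psmb10 and Psmb11 (0.554 to 3.38, 8.38 to 27.8 and 0.0464 to 0.355 CPM over the 6 libraries) each overlapped between the labels. Psmb9 and Psmb10 were highest in Ctl MSC 1, with log2 fold changes of −0.727 and −0.115 (0.586 and 0.921 over the libraries numbered 2 and 3). Psmb11 had 2, 4 and 2 reads across Ctl MSC 1 to 3 and 4, 6 and 1 across MSC-TPr 1 to 3. The counts thus do not show these transcripts raised in every MSC-TPr library, and a direction below is one between labels. Cell division genes did not follow the labels. Their mean log2 CPM over Ctl MSC 1 to 3 was 6.78, 3.35 and 3.34, and over MSC-TPr 1 to 3 it was 3.39, 6.64 and 6.65, so Ctl MSC 1 and MSC-TPr 1 each stood apart from the other libraries of their label. Whether these libraries carry the right labels cannot be settled from the deposited counts, and every difference between labels below rests on them as given. Results are therefore given over all 6 libraries and over the 4 numbered 2 and 3. The 4 were chosen with the cell division levels known. Leaving out the libraries numbered 1 took the common dispersion (spread between libraries) from 0.124 to 0.0168. Of all genes tested, 40.0% were then called by the rule given below. A p-value over the 4 therefore describes those libraries and is no separate support for a difference. Of the MSC markers, Cd44 and Eng were at 142 to 536 and 142 to 204 CPM, and Thy1 (CD90) had 1 read in 1 library and 0 in the others. Nt5e (CD73) separated the labels, at 11.4, 20.2 and 17.4 CPM over Ctl MSC 1 to 3 and at 2.66, 4.20 and 5.24 CPM over MSC-TPr 1 to 3 (log2 fold change −2.02, edgeR adjusted p = 0.0790, DESeq2 adjusted p = 2.03e-05). The summed level of 9 markers of leukocytes, macrophages and endothelium ranged from 3.08 to 12.3 CPM over Ctl MSC and from 3.20 to 17.2 CPM over MSC-TPr. The macrophage gene Cd68 made up most of it in Ctl MSC 1 to 3 (1.63, 9.67 and 7.39 CPM) and MSC-TPr 1 (14.2 CPM). In MSC-TPr 2 and 3 Cd68 was a smaller part, at 1.66 of 4.14 CPM and 0.789 of 3.20 CPM. Kdr reached 2.99 CPM and Csf1r 0.835 CPM, while Cd3e and Adgre1 had 0 reads and Ptprc had 2 reads in 1 library. The part of these markers in the results below was not tested.

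Trp53 transcripts were abundant and varied little. The gene lies on chromosome 11 of mm10 from 69580359 to 69591873. It measured 188, 165 and 169 CPM across Ctl MSC 1 to 3, against 168, 215 and 164 CPM across MSC-TPr 1 to 3. The groups overlapped, with MSC-TPr 2 the highest library and MSC-TPr 3 the lowest, and the highest value was 1.31 times the lowest. The log2 fold change of MSC-TPr over Ctl MSC was 0.07 (SE 0.164, 95% interval −0.33 to 0.46, edgeR adjusted p = 0.882).

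Per exon length, Trp53 had the highest level of the 10 genes and Eda2r the lowest. Mean RPKM over the 6 libraries was 44.1 ± 4.95 for Trp53, 32.2 ± 7.06 for Ccng1, 22.8 ± 4.45 for Mdm2, 16.3 ± 5.30 for Phlda3 and 15.4 ± 4.46 for Sesn2 (SD, n = 6). The other 5 were lower, with 4.62 ± 3.15 for Trp53inp1, 2.75 ± 0.834 for Sesn1, 2.63 ± 0.466 for Zmat3, 2.24 ± 0.764 for Cdkn1a and 2.11 ± 0.858 for Eda2r (SD, n = 6). Only the steps from Trp53 to Ccng1 and from Sesn2 to Trp53inp1 held in all 6 libraries, and each of the other neighbours in this order changed places in 2 or more libraries. Trp53 ranked above all but 6.55% of the genes with a read and a known length, whereas 53.2% ranked above Cdkn1a.

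**Figure D1:**
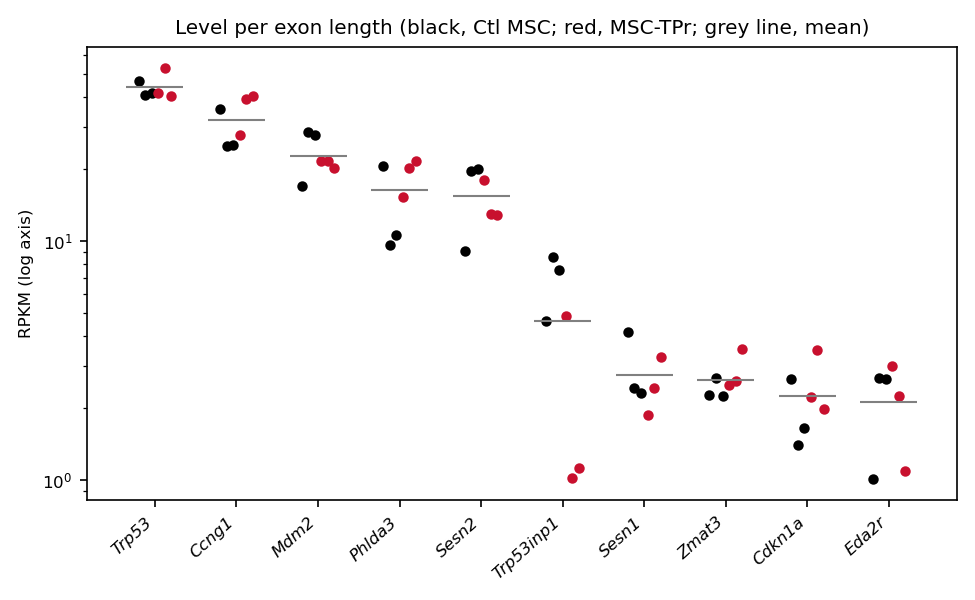
Level of each gene in RPKM (log axis) in the 3 Ctl MSC (black) and 3 MSC-TPr (red) libraries, with the mean over 6 libraries as a grey line. Trp53 sits at 40.5 to 53.1 RPKM, while Cdkn1a sits at 1.40 to 3.51 RPKM.

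Mdm2, the ligase that marks p53 for destruction, was measured at 86.5, 145 and 141 CPM across Ctl MSC 1 to 3, against 110.2, 110.0 and 102 CPM across MSC-TPr 1 to 3. The MSC-TPr libraries lay close together, between Ctl MSC 1 below and Ctl MSC 2 and 3 above, so the groups overlapped. Mdm2 lies on chromosome 10 from 117688875 to 117710758 on the minus strand. Its log2 fold change was −0.21 over all 6 libraries (SE 0.220, 95% interval −0.73 to 0.32, edgeR adjusted p = 0.714). Over the 4 libraries it was −0.42 (SE 0.111, edgeR adjusted p = 0.0244), which is under the size of 0.5 that a call required. Per exon length, Mdm2 stood at 36.6% of Trp53 in Ctl MSC 1, 69.7% in Ctl MSC 2 and 66.3% in Ctl MSC 3. The shares for MSC-TPr 1 to 3 were 52.1%, 40.7% and 49.7%.

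The arrest genes were Cdkn1a, which encodes the cyclin-dependent kinase inhibitor p21, and Ccng1, which encodes cyclin G1. Cdkn1a, the best known transcriptional target of p53, was close to the bottom of the 10 genes. Its reads numbered 156, 93 and 106 across Ctl MSC 1 to 3 and 143, 211 and 152 across MSC-TPr 1 to 3, or 9.43, 4.97, 5.85, 7.92, 12.5 and 7.05 CPM in the same order. MSC-TPr 2 was the highest and Ctl MSC 2 the lowest library, and Ctl MSC 1 exceeded MSC-TPr 1 and 3. Per exon length, Cdkn1a was 3.42% to 6.61% of Trp53. The gene lies on chromosome 17 from 29090976 to 29100727, and one of its exons overlaps AC167363.2 on the opposite strand. Whether the counting used the strand is not given in the sources used here, so reads of the pair cannot be told apart. Over the 6 libraries the log2 fold change was 0.44 (SE 0.351, 95% interval −0.40 to 1.28, edgeR adjusted p = 0.608), and it was 0.85 over the 4 (SE 0.302, edgeR adjusted p = 0.0628).

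Ccng1 measured 125, 88.0 and 88.4 CPM across Ctl MSC 1 to 3, against 97.1, 138 and 141 CPM across MSC-TPr 1 to 3. Its highest 3 values were in MSC-TPr 3, MSC-TPr 2 and Ctl MSC 1, and the groups overlapped. The gene lies on chromosome 11 from 40748552 to 40755311. Over the 6 libraries the log2 fold change was 0.32 (SE 0.225, edgeR adjusted p = 0.550), with a 95% interval from −0.22 to 0.86, and it was 0.67 over the 4 (SE 0.107, edgeR adjusted p = 0.00459). The log2 ratio of MSC-TPr 1 over Ctl MSC 1 was −0.37. The level of Ccng1 per exon length was 25.1 to 40.2 RPKM, above that of Cdkn1a in every library, although each holds a full p53 site upstream of a start site.

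Phlda3 encodes a pleckstrin homology domain protein that competes with AKT for membrane lipids. It lies on chromosome 1 from 135766119 to 135769136. It was found at 32.1, 15.0 and 16.6 CPM across Ctl MSC 1 to 3, against 23.8, 31.5 and 33.7 CPM across MSC-TPr 1 to 3. Ctl MSC 1 reached the level of MSC-TPr 2 and 3, and MSC-TPr 1 lay between them and Ctl MSC 2 and 3. Over all 6 libraries the log2 fold change was 0.49 (SE 0.336, 95% interval −0.32 to 1.29, edgeR adjusted p = 0.543). Over the 4 it was 1.05 (SE 0.130, edgeR adjusted p = 0.00196), or 2.08-fold higher in the MSC-TPr libraries. Ctl MSC 1, MSC-TPr 2 and MSC-TPr 3, the libraries with the highest Phlda3 and Ccng1, also had the highest cell division level. The part of that level itself was not tested, and fits of the label with it as a covariate are given below.

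Sesn1 and Sesn2 encode sestrins, stress proteins that restrain mTORC1 signalling. The pair ran in different directions across the libraries. Sesn1, on chromosome 10 from 41809935 to 41908424, stood at 16.6, 9.67 and 9.21 CPM across Ctl MSC 1 to 3, against 7.42, 9.70 and 13.0 CPM across MSC-TPr 1 to 3. Ctl MSC 1 was its highest and MSC-TPr 1 its lowest library. Sesn2, on chromosome 4 from 132492032 to 132510501, stood at 31.5, 68.4 and 69.8 CPM and at 62.6, 45.0 and 44.8 CPM in the same order. There Ctl MSC 1 was the lowest, and MSC-TPr 1 lay near Ctl MSC 2 and 3. The log2 fold change over 6 libraries was −0.23 for Sesn1 (SE 0.333, edgeR adjusted p = 0.793) and −0.16 for Sesn2 (SE 0.332, edgeR adjusted p = 0.863). Over the 4 libraries Sesn2 was lower in MSC-TPr by 0.62 on the log2 scale (SE 0.109, edgeR adjusted p = 0.00632). Sesn1 had a value of 0.28 there (SE 0.195, edgeR adjusted p = 0.285). Sesn2 is also induced by ATF4 during amino acid and endoplasmic reticulum stress, so it is not a readout of p53 alone.

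Trp53inp1 encodes a stress-induced protein that acts in apoptosis and autophagy, and it differed most of the 10 genes. It measured 29.9, 55.6 and 49.0 CPM across Ctl MSC 1 to 3, against 31.3, 6.63 and 7.24 CPM across MSC-TPr 1 to 3. MSC-TPr 2 and 3 lay far below all others, and the groups overlapped only because MSC-TPr 1 was slightly above Ctl MSC 1. Its highest value was 8.39 times its lowest, against 1.31 to 2.99 for the other 9 genes. The gene lies on chromosome 4 from 11156431 to 11174379. Over the 6 libraries the fit gave a log2 fold change of −1.58 (SE 0.651, 95% interval −3.13 to −0.02), with an unadjusted p of 0.0483 in edgeR's quasi-likelihood test and an adjusted p of 0.328. Over the 4 libraries it fell by 2.91 on the log2 scale (SE 0.144, edgeR adjusted p = 0.000115). With the cell division level as a covariate over all 6 libraries, it was lower by 1.41 (SE 0.281, edgeR adjusted p = 0.0205). That fit called 1438 of all 11974 genes tested. MSC-TPr 1 was the only MSC-TPr library at the low cell division level, and Ctl MSC 1 the only Ctl MSC library at the high level. The covariate fit thus leans on the libraries whose labels cannot be settled.

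Zmat3, which encodes a zinc finger protein that binds RNA, varied little apart from 1 library. It had 26.0, 30.6 and 25.7 CPM across Ctl MSC 1 to 3, against 28.5, 29.6 and 40.2 CPM across MSC-TPr 1 to 3. Only MSC-TPr 3 lay above all Ctl MSC libraries. Zmat3 lies on chromosome 3 from 32334792 to 32366014, and its log2 fold change was 0.26 (SE 0.199, 95% interval −0.22 to 0.73, edgeR adjusted p = 0.592).

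Eda2r, a receptor for ectodysplasin A2 of the TNF receptor superfamily, lies on chromosome X from 97333840 to 97377216. It measured 5.92, 15.7 and 15.6 CPM across Ctl MSC 1 to 3, against 17.7, 13.3 and 6.45 CPM across MSC-TPr 1 to 3. The highest and the lowest library were those numbered 1, and MSC-TPr 2 and 3 differed from each other as well. Over the 6 libraries its log2 fold change was 0.01 (SE 0.498), and the 95% interval from −1.19 to 1.20 leaves room for more than a doubling in either direction (edgeR adjusted p = 0.997).

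**Figure D2:**
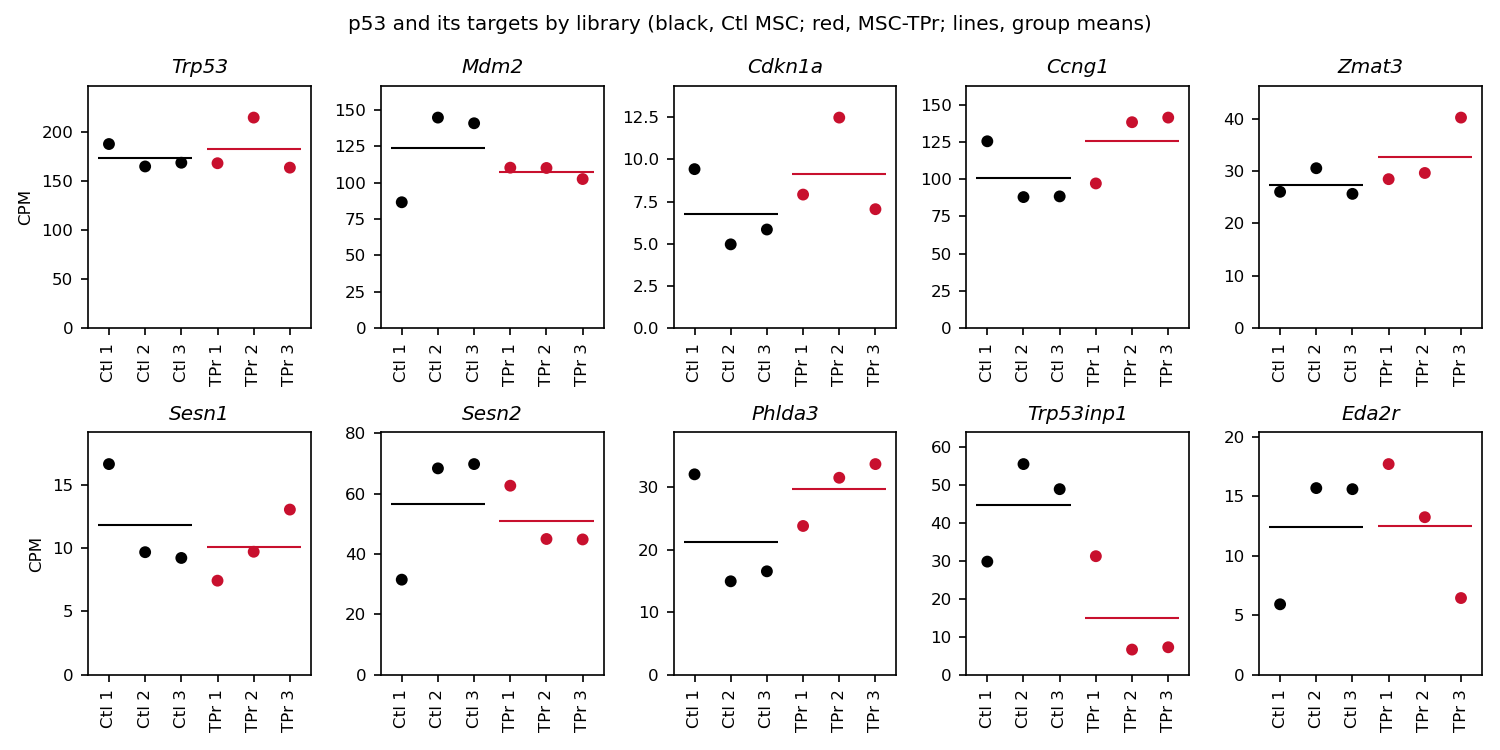
CPM of each gene in the 3 Ctl MSC (black) and 3 MSC-TPr (red) libraries, with group means as lines and each axis starting at 0. Trp53inp1 is lowest in MSC-TPr 2 and 3 (6.63 and 7.24 CPM), and for each gene at least 1 library lies within the range of the other label.

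Taken as a list, none of the 10 genes was called between the labels over all 6 libraries. A call required a log2 fold change of 0.5 or more in size and, in edgeR's quasi-likelihood test, a p under 0.05 after Benjamini-Hochberg adjustment across all genes. Of all genes tested, 0.426% were called, 0.0251% as higher and 0.401% as lower in MSC-TPr. DESeq2 also called none of the 10, against 5.31% of all genes (1.90% higher and 3.42% lower), and 1 of the 10, Trp53inp1, had an unadjusted p under 0.05 in edgeR, against 15.0% of all genes. The fitted log2 fold change was above 0 for 6 genes and below 0 for 4, with a median of 0.04 (−0.001 under upper quartile scaling), and the median over all genes tested was 0.01. The groups overlapped in all 10, whereas they lay apart in 22.6% of all genes.

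Over the 4 libraries numbered 2 and 3, 4 of the 10 genes were called. Ccng1 and Phlda3 were higher in MSC-TPr and Sesn2 and Trp53inp1 lower, against 20.6% of all genes called higher and 19.4% called lower, 40.0% in all. The share among the 10 genes thus equalled that of all genes. Within these 4 libraries the label coincides with the cell division level, all 12 cell division genes being called higher in MSC-TPr with a median log2 fold change of 3.41, so label and cell division cannot be told apart there. With the cell division level as a covariate over all 6 libraries, the log2 fold change was 0.16 for Ccng1 (edgeR adjusted p = 0.357). It was 0.31 for Phlda3 (edgeR adjusted p = 0.208) and 0.17 for Sesn2 (edgeR adjusted p = 0.490). None of these genes was called. Trp53inp1 alone of the 10 genes was called under that fit, against 1438 of all 11974 genes tested. The libraries numbered 1 differed in the opposite direction to those numbered 2 and 3 in 9 of the 10 genes, Zmat3 being the exception, and in 62.1% of all genes tested. In MSC-TPr 1 over Ctl MSC 1, the log2 ratio was 1.56 for Eda2r, 0.99 for Sesn2, 0.35 for Mdm2 and −1.15 for Sesn1, with no replicate.

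**Figure D3:**
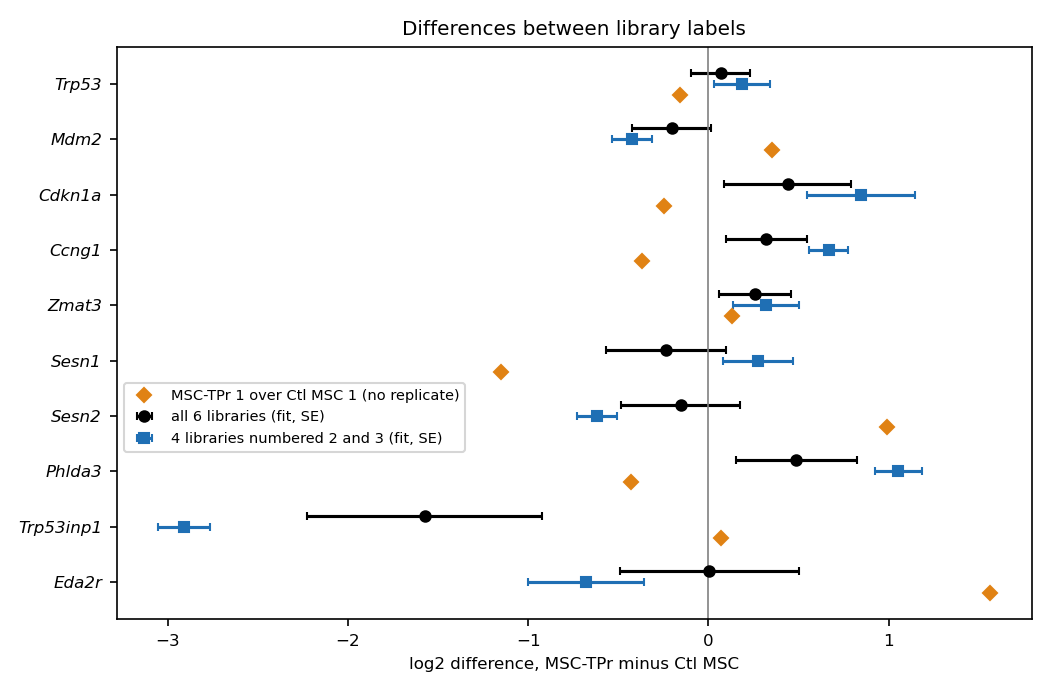
Log2 difference of MSC-TPr minus Ctl MSC for each gene from the fit over 6 libraries (black circles), the fit over the 4 libraries numbered 2 and 3 (blue squares), both with their SE, and the single libraries numbered 1 (orange diamonds, no error). The diamond lies on the other side of 0 from the square in 9 of the 10 genes.

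The targets did not move as 1 block across the libraries. Cdkn1a, Ccng1 and Phlda3 were above their own 6-library mean in both Ctl MSC 1 and MSC-TPr 2, and below it in Ctl MSC 2 and 3. Mdm2, Sesn2 and Eda2r were below their mean in Ctl MSC 1 and above it in Ctl MSC 2 and 3. The median of the centred log2 CPM of the 9 targets was 0.18, 0.04 and −0.20 over Ctl MSC 1 to 3 and −0.02, −0.01 and −0.11 over MSC-TPr 1 to 3. The MSC-TPr values lay within the range of the Ctl MSC values. Fewer cells of 1 kind and less RNA per cell cannot be told apart in these bulk libraries.

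**Figure D4:**
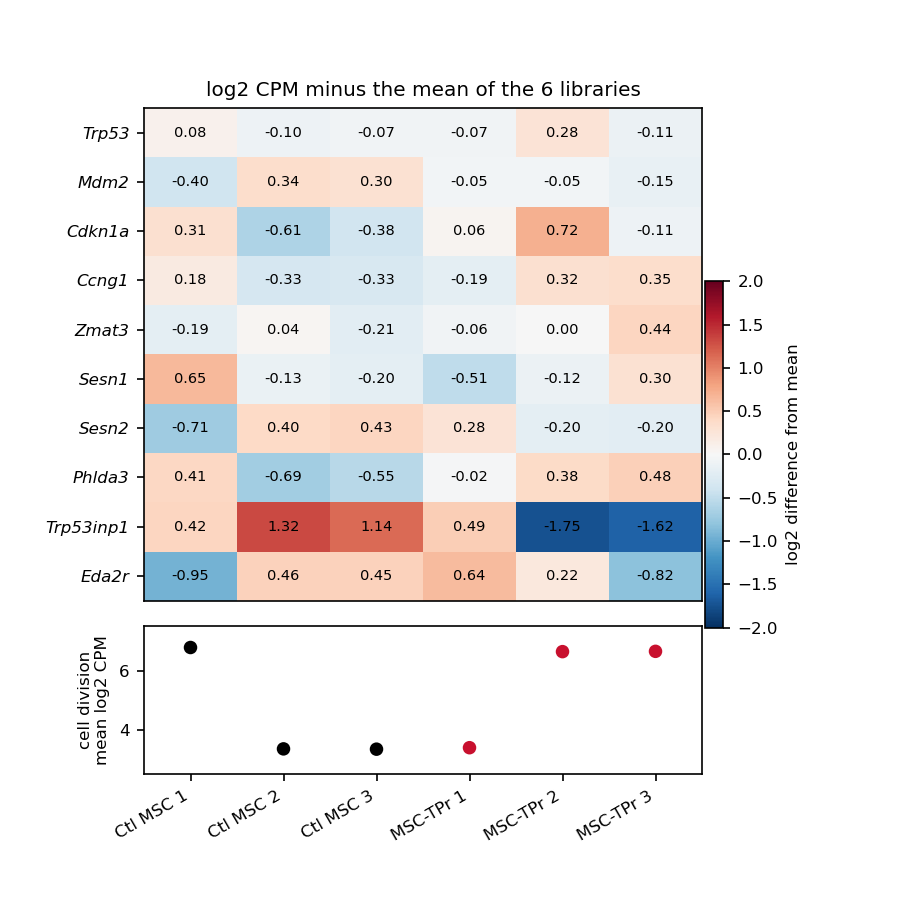
Upper panel, log2 CPM of each gene in each library minus its mean over the 6 libraries (colour scale from −2 to 2). Lower panel, mean log2 CPM of 12 cell division genes in the same libraries, between 3.34 and 3.39 in Ctl MSC 2 and 3 and MSC-TPr 1 and between 6.64 and 6.78 in the other 3.

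Among 10957 genes outside the list with a mean log2 CPM of at least 1, those whose centred log2 CPM over the 6 libraries lay nearest to Cdkn1a were D030056L22Rik, Naa20 and Dpysl2, with root mean square differences of 0.0964, 0.116 and 0.124. Nearest to Mdm2 were Lrrc27, Nox4 and Tigd2, at 0.0547, 0.0564 and 0.0612. The other members lay farther, with Sesn2 nearest to Mdm2 at 0.204, and Phlda3 nearest to Cdkn1a at 0.289. A search of 10957 genes is more likely to find small distances than a list of 10, so no conclusion is drawn from this difference.

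A wider list of 53 p53 regulators and targets was read from the same fit. Of these, 51 were tested, and none was called over 6 libraries with edgeR, against 0.426% of all genes, while 5 had an unadjusted p under 0.05, against 15.0% of all genes. DESeq2 called 1 of the 51, Cdkn2a, against 5.31% of all genes. The median log2 fold change was −0.003, with 25 genes above 0 and 26 below. In 2 genes (Pidd1 and Polk) the MSC-TPr libraries lay above all Ctl MSC libraries and in 5 (Usp7, Cdkn2a, Fas, Dcxr and Ephx1) below, against 10.6% and 12.1% of all genes. Over the 4 libraries 12 of the 51 were called higher and 10 lower, close to the 20.6% and 19.4% of all genes. Of the regulators 0 of 14 were called over 6 libraries, of the apoptosis targets 0 of 10, of the arrest targets 0 of 7, of the DNA repair targets 0 of 7 and of the metabolism and stress targets 0 of 13, and 5 genes of these groups, 1 in each but the arrest targets and 2 in the last, had an unadjusted p under 0.05 in edgeR.

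Among the 14 regulators, the groups did not overlap in 2, Cdkn2a and Usp7, both lower in MSC-TPr, against 22.6% of all genes in either direction. Cdkn2a encodes both p16INK4A, an inhibitor of cyclin D kinases, and p19ARF, which holds Mdm2 away from p53, and gene counts do not separate the transcripts. It lies on chromosome 4 from 89274471 to 89294653. It measured 340, 296 and 326 CPM across Ctl MSC 1 to 3, against 203, 218 and 179 CPM across MSC-TPr 1 to 3. All MSC-TPr libraries were lower, and per exon length its mean of 222 RPKM exceeded that of Trp53. Over the 6 libraries the log2 fold change stood at −0.68 (SE 0.150, edgeR adjusted p = 0.133, DESeq2 adjusted p = 0.00679), with −0.64 over the 4 (SE 0.143, edgeR adjusted p = 0.0141) and −0.69 with the cell division covariate (edgeR adjusted p = 0.0178). Mdm4, the partner of Mdm2 that masks p53, stood at 23.6 to 49.4 CPM across Ctl MSC, against 35.4 to 53.9 CPM across MSC-TPr (log2 fold change 0.17, edgeR adjusted p = 0.841). Ppm1d, the WIP1 phosphatase that shuts the response off, stood at 17.6 to 25.4 and 14.7 to 23.9 CPM (−0.33, edgeR adjusted p = 0.613). Usp7, a deubiquitinase of Mdm2 and p53, had 185 to 204 CPM across Ctl MSC, against 164 to 178 CPM across MSC-TPr (−0.17, edgeR adjusted p = 0.580).

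Of the apoptosis targets, Bax, a pore-forming member of the BCL2 family, was the steadiest, with 67.7, 71.4 and 73.1 CPM across Ctl MSC 1 to 3, against 77.5, 82.2 and 65.1 CPM across MSC-TPr 1 to 3 (log2 fold change 0.08, SE 0.148, edgeR adjusted p = 0.835). Its exons overlap Gm45808 on the same strand, which leaves its count uncertain. Bbc3 (PUMA) ran from 5.14 to 13.3 CPM in Ctl MSC and from 8.30 to 16.9 CPM in MSC-TPr, and Pmaip1 (NOXA) from 17.2 to 31.4 and from 23.6 to 32.6 CPM. Fas, a death receptor, was scarce, at 2.72, 1.12 and 1.82 CPM across Ctl MSC, against 0.886, 0.710 and 0.696 CPM across MSC-TPr. Its groups did not overlap, and the log2 fold change of −1.30 had an adjusted p of 0.238 in edgeR (SE 0.421). Pidd1, listed under its older symbol Lrdd, a scaffold for caspase-2, had 0.883 to 1.45 CPM across Ctl MSC, against 1.83 to 2.38 CPM across MSC-TPr (0.72, edgeR adjusted p = 0.369).

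Among the remaining targets, Gadd45a, a growth arrest gene, spanned the widest range of those named here. It stood at 84.0, 471 and 479 CPM across Ctl MSC 1 to 3, against 561, 338 and 201 CPM across MSC-TPr 1 to 3, with both extremes in the libraries numbered 1. Its exons overlap E230016M11Rik on the opposite strand, and the log2 fold change was 0.09 (SE 0.671, edgeR adjusted p = 0.964). Gdf15, a secreted stress cytokine, had 15.3, 81.7 and 81.5 CPM across Ctl MSC, against 22.9, 36.9 and 25.8 CPM across MSC-TPr (−1.06, SE 0.597, edgeR adjusted p = 0.460). Ddit4 (REDD1), an inhibitor of mTORC1, had 22.4, 20.6 and 19.1 CPM and 13.0, 40.4 and 40.1 CPM in the same order (0.59, edgeR adjusted p = 0.556). Btg2 and Plk2 ran from 9.06 to 25.0 and from 82.2 to 165 CPM over the 6 libraries. Polk, a translesion DNA polymerase, had 22.4 to 25.8 CPM across Ctl MSC, against 28.8 to 40.2 CPM across MSC-TPr (0.56, SE 0.190, edgeR adjusted p = 0.255). Ephx1, an epoxide hydrolase whose exons overlap Gm36961 on the same strand, had 119 to 132 and 81.6 to 93.6 CPM (−0.50, SE 0.135, edgeR adjusted p = 0.185). Dcxr, a carbonyl reductase, had 4.95 to 6.04 and 2.22 to 4.18 CPM (−0.75, edgeR adjusted p = 0.323).

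**Figure D5:**
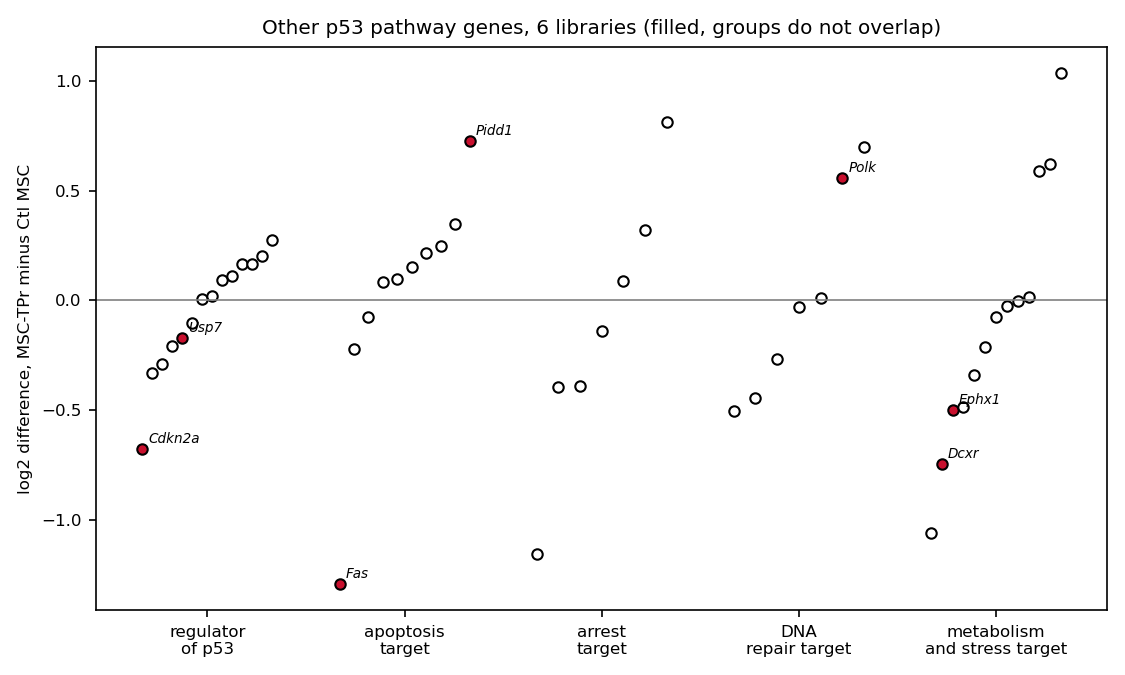
Log2 difference of MSC-TPr minus Ctl MSC over 6 libraries for the 51 tested genes of the wider list, by role. Filled, named points are the 7 genes whose groups do not overlap, among them Fas at −1.30 and Cdkn2a at −0.68, and none passed the adjusted threshold in edgeR.

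The relatives of p53 were set beside it. Trp63 had 24.2, 14.4 and 13.5 CPM across Ctl MSC 1 to 3, against 3.49, 4.97 and 11.0 CPM across MSC-TPr 1 to 3, without overlap. Over the 6 libraries its log2 fold change stood at −1.42 (SE 0.480, edgeR adjusted p = 0.250), and it stood at −0.79 over the 4 (SE 0.345, edgeR adjusted p = 0.108). With the cell division covariate Trp63 fell by 1.76 (SE 0.304, edgeR adjusted p = 0.012). Per exon length it had a mean of 1.42 RPKM, against 44.1 RPKM for Trp53. Trp73 had 1 read in 1 library and 0 in the others.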

How the data were processed

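PolyA RNA was sequenced from both ends in 3 Ctl MSC and 3 MSC-TPr libraries prepared with a stranded KAPA kit. The authors deposited raw read counts per gene from Htseq-count on mm10. The submitters' processing notes name CASAVA 1.8.2, Trimmomatic 0.35 and TopHat2 2.1.0. The annotation and strand setting are not given in the sources used here. The 5 summary lines naming no gene held 13.8% to 20.8% of the listed reads and were left out. Groups came from the sample labels.

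The fits used edgeR 4.0.16 in R 4.3.3, with TMM scaling, the filterByExpr filter and a quasi-likelihood test on a design holding the label alone. P-values were adjusted by Benjamini-Hochberg. A standard error is the log2 fold change divided by the square root of F, and the 95% interval uses the total degrees of freedom of that test, prior included. DESeq2 1.42.0 was an alternative. The fits were tested on simulated counts in which 200 of 11974 genes changed 4-fold. At a dispersion (spread between libraries) of 0.01, edgeR recovered 197 with 4 false calls and DESeq2 196 with 0. At 0.1, edgeR recovered 183 with 17 false calls and DESeq2 177 with 26. The common dispersion of the 6 libraries was 0.124, and smaller fold changes were not simulated. Coordinates and exon lengths are from GENCODE M21 (mm10), which matched 21777 genes by symbol and 1248 by an older symbol and left 395 unmatched. Promoters are from RefSeq (GRCm38.p6). Figures were drawn in Python 3.11.15 with matplotlib 3.10.9.

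Same-numbered libraries deviated from their group means with correlations of −0.77, −0.59 and −0.60 across genes, so the numbers were not taken as pairs. The least different libraries of 1 label, Ctl MSC 2 and 3, still differed by more than sampling noise (chi-square per gene 5.02). Members, gene lists and alternatives were chosen with earlier results of these data known. All 10 members were named, with 12 set pathway genes, those whose groups do not overlap, Trp63, Trp73 and the genes nearest in pattern. Alternatives were other normalizations and filters, DESeq2, the replicate block, a covariate averaging log2 CPM over 12 cell division genes, leaving out each library, and the 4 libraries numbered 2 and 3.
Some results for single genes are not reported here.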

Additional observations from a re-analysis of the deposited data

How the results depend on the processing

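None of the 10 genes was called over the 6 libraries, and this held under RLE and upper quartile scaling, without a filter on low counts, with at least 10 counts in every library, without a fold threshold, with DESeq2, with the replicate block and with each library left out. With the cell division covariate 1 was called (Trp53inp1), against 1438 of all 11974 genes tested. Over the 4 libraries 4 were called, against 4854 of 12122 genes. The median log2 fold change of the 10 genes, 0.04 as reported, was 0.16 with the covariate, 0.23 over the 4 libraries and −0.05 to 0.13 with each library left out. Pathway genes called numbered 0 as reported and with each library left out, and 1 with DESeq2. With the covariate 3 of 51 were called (Cdkn2a, Tnfaip8 and Ephx1), and over the 4 libraries 22 of 51 were. Among all genes, 51 were called as reported, 31 with at least 10 counts in every library, 683 with DESeq2, 0 with the replicate block, 1438 with the covariate, 4854 over the 4 libraries and 0 to 108 with each library left out (108 without Ctl MSC 1, 1 without MSC-TPr 2, and 0 without Ctl MSC 2, Ctl MSC 3 or MSC-TPr 3). The replicate block changed no call among the 10 genes.

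Cdkn1a, Mdm2, Ccng1, Zmat3, Phlda3 and Trp53inp1 had the same sign in all 14 alternative fits of each gene. These fits reuse the same libraries, so a shared sign is no separate support. MSC-TPr 1 over Ctl MSC 1 alone had the opposite sign for all of them but Zmat3. That log2 ratio was −0.25 for Cdkn1a, 0.35 for Mdm2, −0.37 for Ccng1, −0.43 for Phlda3, 0.07 for Trp53inp1 and 0.13 for Zmat3. Eda2r, at 0.01 as reported, was −0.026 with upper quartile scaling, −0.009 with at least 10 counts in every library, −0.002 with the replicate block and −0.68 over the 4 libraries, and ran from −0.336 to 0.324 with each library left out. Sesn2 was 0.17 with the covariate and ran from −0.441 (without Ctl MSC 1) to 0.024 (without Ctl MSC 3) with each library left out. Sesn1 was 0.28 over the 4 libraries and ran from −0.459 (without MSC-TPr 3) to 0.094 (without Ctl MSC 1), and Trp53 from −0.062 (without MSC-TPr 2) to 0.146 (without MSC-TPr 3). The cause was not tested. The lowest counts were 93 reads for Cdkn1a and 98 for Eda2r in 1 library each.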

Other observations

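Some genes of the wider p53 list differed more between libraries of 1 label than between labels. They were chosen after their values were seen and carry no test. Gtse1, a mitotic gene that moves p53 out of the nucleus, had 26.5, 3.37 and 3.70 CPM across Ctl MSC 1 to 3, against 3.88, 27.5 and 27.4 CPM across MSC-TPr 1 to 3. Pcna, the replication clamp and a p53 target, had 243, 101 and 106 CPM and 157, 338 and 234 CPM in the same order. Ddb2 and Xpc, damage sensors of nucleotide excision repair, ran the other way, with Ddb2 at 2.84, 10.4 and 8.66 CPM and at 11.7, 3.37 and 3.11 CPM. Xpc was at 18.9, 40.1 and 37.8 CPM across Ctl MSC, against 35.1, 17.2 and 15.9 CPM across MSC-TPr. Ccng2, a relative of Ccng1 that is linked to quiescence, had 27.9, 49.6 and 50.6 CPM and 58.8, 19.3 and 19.4 CPM. In each of these genes Ctl MSC 1 lay on the side of MSC-TPr 2 and 3, and cell division genes had a mean log2 CPM of 6.78, 6.64 and 6.65 in these 3 libraries and of 3.34 to 3.39 in the others. Its part in these values was not tested.

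Thbs1, a secreted protein listed as a p53 target that also responds to TGF-β, spanned the widest range of the tested genes in the list. It had 1900, 351 and 319 CPM across Ctl MSC 1 to 3, against 90.2, 675 and 1762 CPM across MSC-TPr 1 to 3.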
